A study of Mus musculus with 9 samples.

Results

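The family of mir-103 and mir-107 was followed through small RNA sequencing of extracellular vesicles (EVs) from bronchoalveolar lavage fluid (BALF) of mice that inhaled ozone (O3). Its members were all rows of the hairpins mir-103 and mir-107 in the deposited table, with both arms, every genomic copy and every isomiR. IsomiRs are sequence variants of a miRNA, and those listed here were read as forms with a shifted 5′ end. They were 13 of 1308 rows, 12 of mir-103 and 1 of mir-107, and all 13 belonged to the 3p arm. Female C57BL/6J mice, 8 to 10 weeks old and not otherwise altered, breathed filtered air (FA), 1 ppm O3 or 2 ppm O3 for 3 h, and the lavage was taken on the next day. Each exposure was represented by 3 pools of EV RNA. An FA pool held BALF of 4 mice and an O3 pool that of 3 mice, so that the number of mice per pool and O3 exposure cannot be told apart. Nothing in the labels ties a pool of 1 exposure to a pool of another. All values are RPMMM, reads mapped to a miRNA scaled to a total of 1000000 miRNA reads in each pool.

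miR-103 and miR-107 are small regulatory RNAs that lower the output of mRNAs pairing with their seed, which is bases 2 to 8 of the mature strand. Their genes sit inside the genes of pantothenate kinases, the enzymes that begin the synthesis of coenzyme A. The family is expressed in most tissues, is known for its effects on insulin signalling through caveolin and for repressing the miRNA-processing enzyme Dicer, and mir-103 has served as a reference miRNA in RT-qPCR. The related mir-15 and mir-16 group is known for restraining the cell cycle.

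The mature strands are shown first because the family's rows differ by a single base. RefSeq (build GRCm38.p6) gave a mature sequence for the 3 hairpins mir-103-1, mir-103-2 and mir-107, and the strands below are written 5′ to 3′ with the seed in capitals.
miR-103-3p: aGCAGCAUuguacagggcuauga
miR-107-3p: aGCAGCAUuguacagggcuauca
miR-103-3p starting 1 base later: gCAGCAUUguacagggcuauga
miR-16-5p: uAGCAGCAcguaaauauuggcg
miR-15b-5p: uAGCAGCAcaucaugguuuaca
miR-322-5p: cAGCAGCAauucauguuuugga
Both copies of mir-103 gave the same 23 bases. Counted from 1 at the 5′ end, the sole difference between miR-103-3p and miR-107-3p was G22C, so that the first 21 bases were the same and a read that ended before base 22 held nothing to tell them apart. Of 1679 mature mouse miRNAs in the RefSeq table, only these 2 carried the seed GCAGCAU. The form that starts 1 base later has the seed CAGCAUU, which no mature miRNA of the table carried. The seed AGCAGCA of miR-16-5p, miR-15b-5p and miR-322-5p corresponds to bases 1 to 7 of miR-103-3p. These strands and miR-103-3p thus read the same letters from positions that differ by 1 base. miR-503-5p, counted below with the mir-15 and mir-16 group, has the seed AGCAGCG instead.

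The hairpins are shown because they place the reads: every row of the family came from the 3p arm, in capitals here.
mir-103-1: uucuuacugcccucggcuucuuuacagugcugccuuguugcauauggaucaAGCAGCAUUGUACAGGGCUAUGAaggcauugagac
mir-103-2: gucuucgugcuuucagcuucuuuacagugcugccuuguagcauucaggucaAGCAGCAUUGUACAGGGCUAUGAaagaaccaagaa
mir-107: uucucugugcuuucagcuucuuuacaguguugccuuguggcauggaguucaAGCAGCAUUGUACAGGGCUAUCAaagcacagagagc
In mm9, the build the authors aligned to, mir-103-1 lies in an intron of Pank3 at chr11:35595898-35595983, plus strand. mir-103-2 lies in an intron of Pank2 at chr2:131113788-131113873, plus strand. mir-107 lies in an intron of Pank1 at chr19:34895177-34895263, minus strand. All 3 hairpins had the same sequence in mm9 and in RefSeq. The 5p arm, which differs between the copies at its first base (G1A from mir-103-1 to mir-103-2), was listed in 0 of the 13 rows.

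The pools held between 281620 and 861181 miRNA reads, estimated from the steps on which low values lie, and the 3 pools of 2 ppm O3 held between 281620 and 301009. By this estimate no value above 0 stood for fewer than about 10 reads. The search for the steps covered only a range that puts the lowest value of a pool near 10 reads. All estimates of reads therefore rest partly on that range. The lowest value listed was between 11.8 and 18.9 RPMMM in the FA and 1 ppm pools. In the 2 ppm pools it was between 34.3 and 37.3 RPMMM. A row listed at 0 can therefore hold a miRNA below that minimum. Entries of 5 hairpins, mir-5115, mir-5109, mir-5105, mir-5102 and mir-2137, made up 0.588% of the total in FA, 8.07% after 1 ppm O3 and 45.2% after 2 ppm O3, which leaves a smaller share of the fixed total to every other miRNA in the 2 ppm pools. Over all 461 entries with a mean above 50 RPMMM, the log2 fold change against FA had a median of -0.08 after 1 ppm O3 and of -0.83 after 2 ppm O3. Levels of the family are therefore also given relative to these medians and as ratios within a pool.

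mir-103 was an abundant miRNA of these EVs and its level after 2 ppm O3 was 0.512 times that in FA, a change close to that of the median miRNA. The row mir-103-2-3p stood at 2154, 2048 and 2592 RPMMM in the FA pools. After 1 ppm O3 it stood at 2186, 1839 and 2414 RPMMM. After 2 ppm O3 it stood at 1112, 1194 and 1173 RPMMM. The FA and 1 ppm pools overlapped, and all 3 pools of 2 ppm O3 lay below every other pool. The means were 2265 ± 288 RPMMM (SD, n = 3) in FA, 2146 ± 289 after 1 ppm O3 and 1160 ± 42.8 after 2 ppm O3. Among 394 mature miRNAs, with copies of 1 miRNA counted once, mir-103-3p held rank 61 in FA, rank 56 after 1 ppm O3 and rank 62 after 2 ppm O3.

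The copy mir-103-1-3p gave nearly the same values, from 2048 to 2594 RPMMM in FA, from 1767 to 2414 after 1 ppm O3 and from 1068 to 1194 after 2 ppm O3. Copy 2 was higher in 5 pools, copy 1 was higher in 1 pool and both were equal in 3 pools, with a largest difference of 3.92% of copy 2. Since the mature strands are the same, a read that holds only the mature strand cannot be assigned to 1 locus. The copies still differed by up to 47.0 estimated reads, and what set those reads apart was not tested. Of the 36 values above 0 in the shifted rows of mir-103, 15 lay on a read divided by 2 (within 0.05 reads), 12 on whole reads, 4 on a read divided by 3 and 5 on none of these. The 36 count both copies, whose shifted rows held the same value in most pools, so that many values enter more than once. The copies are therefore not independent measurements, and all ratios to mir-103 below use mir-103-2-3p.

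**Figure D1:**
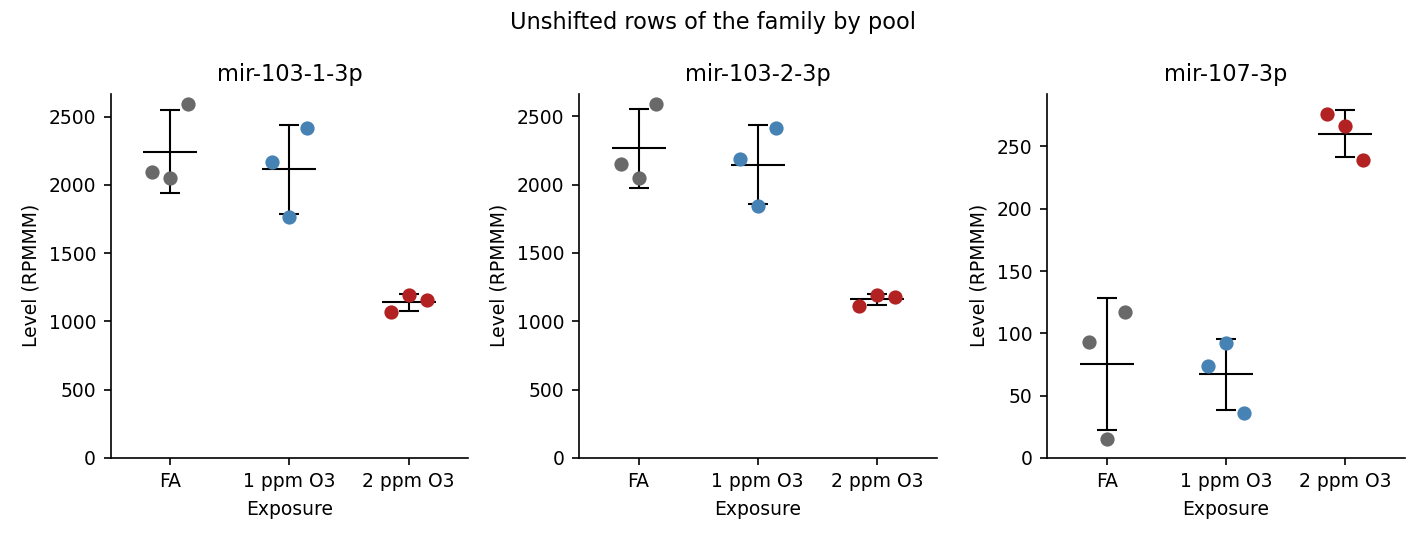
Level in RPMMM (vertical axis, starting at 0) of mir-103-1-3p, mir-103-2-3p and mir-107-3p by exposure. Points are pools, the horizontal line is the mean of 3 pools and the bars are 1 SD. The 2 ppm pools lie below all others for both mir-103 copies (1068 to 1194 RPMMM) and above all others for mir-107-3p (239 to 276 RPMMM).

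mir-107 moved the other way. The row mir-107-3p stood at 92.9, 15.5 and 117 RPMMM in the FA pools. After 1 ppm O3 it stood at 73.8, 91.9 and 35.6 RPMMM. In the 2 ppm pools it stood at 276, 266 and 239 RPMMM. The FA and 1 ppm pools overlapped widely, and all 3 pools of 2 ppm O3 lay above every other pool. The means were 75.2 ± 53.0 RPMMM (SD, n = 3) in FA, 67.1 ± 28.7 after 1 ppm O3 and 260 ± 19.0 after 2 ppm O3. Its rank among the 394 mature miRNAs was 201 in FA, 187 after 1 ppm O3 and 111 after 2 ppm O3.

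These levels of mir-107-3p rested on few reads. The FA values stood for an estimated 71.7, 12.0 and 62.7 reads, the 1 ppm values for 44.3, 51.0 and 30.7 reads, and the 2 ppm values for 83.0, 77.0 and 67.4 reads in pools with fewer reads in all. The exact Poisson interval at the 95% level, which covers counting error only, ran from 8.02 to 27.1 RPMMM for FA replicate 2 and from 72.7 to 117 RPMMM for FA replicate 1. Those FA pools differed by more than their counting error. In 5 of the 9 pools the value was a multiple of a read divided by 3 and in 4 a whole number of reads (within 0.05 reads). Reads too short to reach base 22 can come from any of the 3 loci, and how much of the value of mir-107-3p they make up was not tested.

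The limma fit asked which family rows differed between exposures, on log2(RPMMM + 1) over all 461 entries with a mean above 50 RPMMM, with differential expression (DE) called where the fold change was 2 or more and the adjusted p was below 0.05. Of the 13 rows, 5 passed the filter on the mean and 8 did not. The 5 were mir-103-1-3p, mir-103-2-3p, mir-107-3p and the rows of both mir-103 copies that start 1 base later, mir-103-1-3p_+_1 and mir-103-2-3p_+_1. The shifted rows passed the filter through their FA and 1 ppm levels, since their means after 2 ppm O3 were 21.5 and 45.8 RPMMM. Those of mir-107-3p were above 50 RPMMM after each exposure.

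After 1 ppm O3, 0 of the 5 rows were DE, where 13.2% of all entries were DE, and 0 had an adjusted p below 0.05, where 17.1% of all entries did. The log2 fold change of mir-103-2-3p was -0.08 with a 95% interval from -0.40 to 0.24 (limma, adjusted p = 0.822), and the interval leaves out a change of 2-fold in either direction. For mir-107-3p it was 0.16 with an interval from -1.53 to 1.84 (limma, adjusted p = 0.952), which leaves room for a change of over 2-fold either way. For mir-103-1-3p it was -0.09 (limma, adjusted p = 0.811). The rows mir-103-1-3p_+_1 and mir-103-2-3p_+_1 had log2 fold changes of -0.96 and -0.99 with standard errors of 1.51 and 1.46.

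After 2 ppm O3, 2 of the 5 rows were DE compared with FA, 1 higher and 1 lower, where 43.6% of all entries were DE, 14.3% higher and 29.3% lower. An adjusted p below 0.05 was reached by 4 of the 5 rows, where 53.4% of all entries reached it. mir-107-3p was DE and higher, with a log2 fold change of 2.20 (SE 0.748, 95% interval from 0.52 to 3.88, limma, adjusted p = 0.0322), and the ratio of its mean RPMMM was 3.46. Without FA replicate 2, the pool with the lowest value, the log2 fold change was 1.31 (limma, adjusted p = 0.0642), and without replicate 1, 2 or 3 of 2 ppm O3 the adjusted p from limma was 0.0815, 0.0723 and 0.0600, so that mir-107-3p was no longer DE without any one of these 4 pools.

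mir-103-2-3p fell by 0.96 on the log2 scale (SE 0.143, limma, adjusted p = 0.000407) and mir-103-1-3p fell by 0.97 (SE 0.153, limma, adjusted p = 0.000560), both just short of the fold of 2. Without FA replicate 2 the log2 fold changes were -1.03 and -1.03, which passed the fold of 2 (limma, adjusted p = 0.00114 and 0.00166). Set against the median of the 461 entries, the log2 fold change was -0.13 for mir-103-2-3p and 3.03 for mir-107-3p. Counted from the entry that rose most, mir-107-3p held rank 64 and mir-103-2-3p rank 259 of 461.

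**Figure D2:**
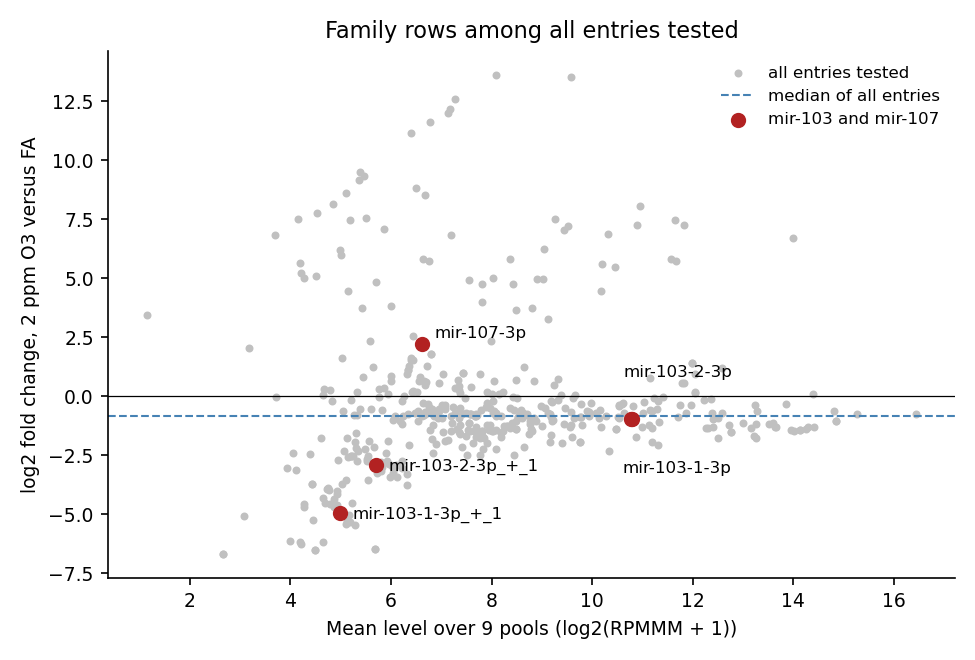
log2 fold change between 2 ppm O3 and FA (vertical axis) against the mean level over the 9 pools in log2(RPMMM + 1) (horizontal axis) for the 461 entries tested. Grey points are all entries, red points are the 5 family rows tested and the dashed line is the median of all entries at -0.83; both mature mir-103 rows lie beside that line, mir-107-3p lies above it at 2.20 and both shifted rows lie below it.

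Between 2 ppm and 1 ppm O3, 0 of the 5 rows were DE, where 33.6% of all entries were, and 2 of the 5 had an adjusted p below 0.05, where 44.5% of all entries had. mir-103-2-3p fell by 0.88 on the log2 scale (SE 0.143, limma, adjusted p = 0.000933). The difference of mir-107-3p was 2.04 (SE 0.748, limma, adjusted p = 0.0501), just short of the threshold. These comparisons share the pools of 2 ppm O3 with those against FA and are not independent of them.

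The scaling of the pools moved the change of mir-103 and not the direction of mir-107. With the pools scaled by the median of their ratios, the log2 fold change of mir-103-2-3p between 2 ppm O3 and FA was -0.26 (limma, adjusted p = 0.169). With the total taken without the 5 hairpins it was -0.10 (limma, adjusted p = 0.609), with an interval from -0.40 to 0.20. Divided by miR-23a-3p, the miRNA that the study took to normalise RT-qPCR, it was -1.05 (limma, adjusted p = 0.000473). The study chose that miRNA for its low variation in the small RNA sequencing, so that it is not an independent reference. Under the same 3 scalings mir-107-3p had log2 fold changes of 2.89, 3.06 and 2.11 (limma, adjusted p = 0.0135, 0.0129 and 0.0384).

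**Figure D3:**
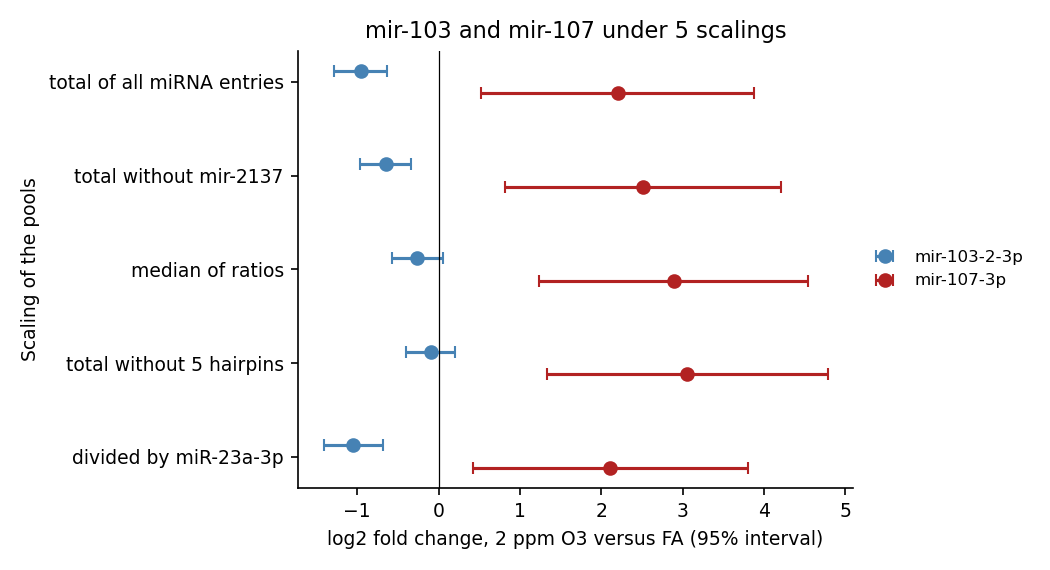
log2 fold change between 2 ppm O3 and FA (horizontal axis) of mir-103-2-3p in blue and mir-107-3p in red under 5 scalings of the pools (vertical axis), with 95% intervals from limma. The values of mir-103-2-3p run from -1.05 to -0.10 and its intervals reach 0 under 2 scalings, while those of mir-107-3p run from 2.11 to 3.06 and its intervals stay above 0.

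A ratio of both miRNAs within a pool does not depend on the scaling. mir-107-3p was 4.31%, 0.758% and 4.51% of mir-103-2-3p in the FA pools. In the 1 ppm pools it was 3.37%, 4.99% and 1.48%. In the 2 ppm pools it was 24.8%, 22.3% and 20.4%. The 2 ppm pools lay above all others, and the FA and 1 ppm pools overlapped. The mean log2 ratio was 3.19 higher after 2 ppm O3 than in FA and 2.94 higher than after 1 ppm O3, and for both the exact permutation test, two-sided, gave p = 0.1, the lowest p for 3 pools against 3 (0.2 adjusted over 18 comparisons). Without FA replicate 2, in which mir-107-3p stood for 12.0 reads, the difference between 2 ppm O3 and FA was 2.35, and without any one other pool of these exposures it lay between 3.12 and 3.63. Between 1 ppm O3 and FA the difference was 0.25 (exact permutation test, two-sided, p = 0.8). Across the exposures, the percentage was higher in the pool of the higher concentration in 23 of 27 pairs of pools (two-sided exact permutation test, p = 0.0417, adjusted over 11 trends 0.0573).

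**Figure D4:**
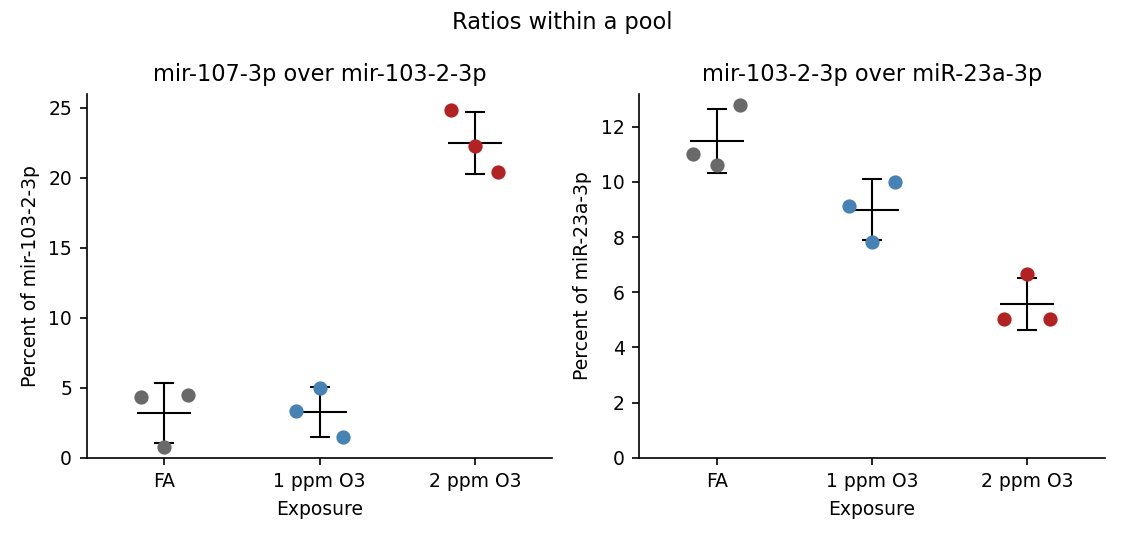
Left, mir-107-3p in percent of mir-103-2-3p, and right, mir-103-2-3p in percent of miR-23a-3p (vertical axes, starting at 0), by exposure. Points are pools, the horizontal line is the mean of 3 pools and the bars are 1 SD. The 2 ppm pools lie between 20.4% and 24.8% on the left, against 4.99% or less elsewhere, and on the right the 3 exposures do not overlap.

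The total of the family, with the mean of both mir-103 copies taken in place of their sum, was 2505 ± 362 RPMMM (SD, n = 3) in FA, 2342 ± 335 after 1 ppm O3 and 1450 ± 89.9 after 2 ppm O3. The pools of 2 ppm O3, from 1366 to 1545 RPMMM, lay below all others, from 1986 to 2921 RPMMM. The log2 difference between 2 ppm O3 and FA was -0.78 (exact permutation test, two-sided, p = 0.1) and that between 1 ppm O3 and FA was -0.10 (exact permutation test, two-sided, p = 0.6). With the total of each pool taken without the 5 hairpins the difference between 2 ppm O3 and FA was 0.08 (exact permutation test, two-sided, p = 0.6), so that its direction rested on the scaling.

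mir-103 was also set against miR-23a-3p. mir-103-2-3p was 11.0%, 10.6% and 12.8% of miR-23a-3p in the FA pools. In the 1 ppm pools it was 9.13%, 7.82% and 10.0%. In the 2 ppm pools it was 5.03%, 6.67% and 5.03%. No pools of different exposures overlapped, and the ratio was higher at the higher concentration in 0 of the 27 pairs (two-sided exact permutation test, p = 0.00119, which is the lowest these pools can give, and 0.0131 adjusted over 11 trends). The mean log2 ratio fell by 0.35 from FA to 1 ppm O3 and by 0.69 from 1 ppm to 2 ppm O3, each with p = 0.1 (exact permutation test, two-sided, 0.2 adjusted over 18 comparisons). Over all 464 entries divided by miR-23a-3p, the median log2 fold change was -0.36 from FA to 1 ppm O3 and -0.50 from 1 ppm to 2 ppm O3. A fall against miR-23a-3p is therefore not particular to mir-103. mir-107-3p was 0.378% of miR-23a-3p on average in FA, 0.282% after 1 ppm O3 and 1.25% after 2 ppm O3, and 21 of the 27 pairs rose (exact permutation test, two-sided, p = 0.123).

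Over all 9 pools the coefficient of variation of mir-103-2-3p was 30.4%, rank 62 from the lowest of 461 entries, whose median was 50.6%. That of miR-23a-3p was 10.8% (rank 2) and that of mir-107-3p was 74.4% (rank 352). The study chose miR-23a-3p for its low coefficient of variation in the small RNA sequencing, so that its rank here is not independent of that choice. With the pools scaled by the median of their ratios the coefficient was 12.9% for mir-103-2-3p (rank 15 of 455) and 25.3% for miR-23a-3p (rank 92). With the total taken without the 5 hairpins it was 9.84% for mir-103-2-3p (rank 6 of 498) and 30.3% for miR-23a-3p (rank 136). Which of both miRNAs varied less thus changed with the scaling, and for mir-107-3p it was 95.4% and 98.6% under these scalings.

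The rows of mir-103 with a shifted 5′ end were 10 of the 13 and held a small share of the family. Their suffix was read as the number of bases by which the 5′ end lies downstream (+) or upstream (-) of the annotated one; the sources used here do not spell out the sign. mir-103-1-3p_+_1, whose seed CAGCAUU is shown above, stood at 96.6, 125 and 156 RPMMM in FA and at 81.3, 47.7 and 65.0 RPMMM after 1 ppm O3. In the 2 ppm pools it was listed at 0, 64.5 and 0 RPMMM. The exposures FA and 2 ppm O3 did not overlap, and the row was DE and lower, with a log2 fold change of -4.95 (SE 1.51, limma, adjusted p = 0.0202). That size rests on the pools listed at 0, in which the lowest value above 0 was 34.3 and 37.3 RPMMM, below every FA value of the row. With a pseudocount of 10 RPMMM in place of 1 it was -2.78, and the ratio of the mean RPMMM was 0.171. The row was no longer DE without FA replicate 2 or 3 (log2 fold changes -4.94 and -4.78, limma, adjusted p = 0.0564 and 0.0635), without 2 ppm O3 replicate 1 or 3 (both -3.95, limma, adjusted p = 0.0647 and 0.0557), with median-of-ratios scaling (-4.52, limma, adjusted p = 0.0552) or with the total taken without the 5 hairpins (-4.66, limma, adjusted p = 0.0620). Without 2 ppm O3 replicate 2, the pool in which it was listed above 0, it was -6.96 (limma, adjusted p = 0.000233).

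For mir-103-2-3p_+_1, which holds the same sequence, the 2 ppm pools stood at 0, 64.5 and 72.8 RPMMM, and the log2 fold change was -2.92 (SE 1.46, limma, adjusted p = 0.113). It was -0.88 without 2 ppm O3 replicate 1, the pool listed at 0, -3.90 and -3.98 without replicate 2 or 3, and -1.80 with a pseudocount of 10 RPMMM (limma, adjusted p = 0.185, 0.0644, 0.0539 and 0.0614). Both copies thus differed in 1 pool of 2 ppm O3, where copy 2 stood for an estimated 20.5 reads and copy 1 was listed at 0. Of the 27 pairs of pools, 1 rose with concentration for mir-103-1-3p_+_1 (exact permutation test, two-sided, p = 0.00357, adjusted over 11 trends 0.0196) and 3 rose for mir-103-2-3p_+_1 (exact permutation test, two-sided, p = 0.0214, adjusted 0.0573).

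The rows of both copies that start 2 bases later stood between 19.5 and 66.6 RPMMM in FA and between 21.6 and 52.1 RPMMM after 1 ppm O3. After 2 ppm O3 the row of copy 2 was listed in 1 pool, at 40.9 RPMMM, and that of copy 1 in 0 pools. These rows had means under 50 RPMMM and were left out of the main fit. Without the filter on the mean, mir-103-1-3p_+_2 was DE and lower after 2 ppm O3 compared with FA (limma, adjusted p = 0.00709) and with 1 ppm O3 (limma, adjusted p = 0.0120), while mir-103-2-3p_+_2, which holds the same sequence, had an adjusted p of 0.115 and 0.172 from limma. All 3 pools of 2 ppm O3 were listed at 0 for mir-103-1-3p_+_2, so that its fitted fold change has no fixed size. The FA value of 19.5 RPMMM lies under the minimum of the 2 ppm pools and the FA values of 66.6 and 55.1 RPMMM lie above it. The rows shifted by 3 bases were listed in 2 pools of 1 ppm O3, at 17.5 and 54.2 RPMMM, and those shifted by 5 bases in 1 pool of 1 ppm O3, at 21.6 RPMMM. The rows that start 1 base earlier, and so carry the seed of miR-16-5p, were listed at 30.2 RPMMM in the 1 ppm pool with the most reads and at 0 in the other pools.

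**Figure D5:**
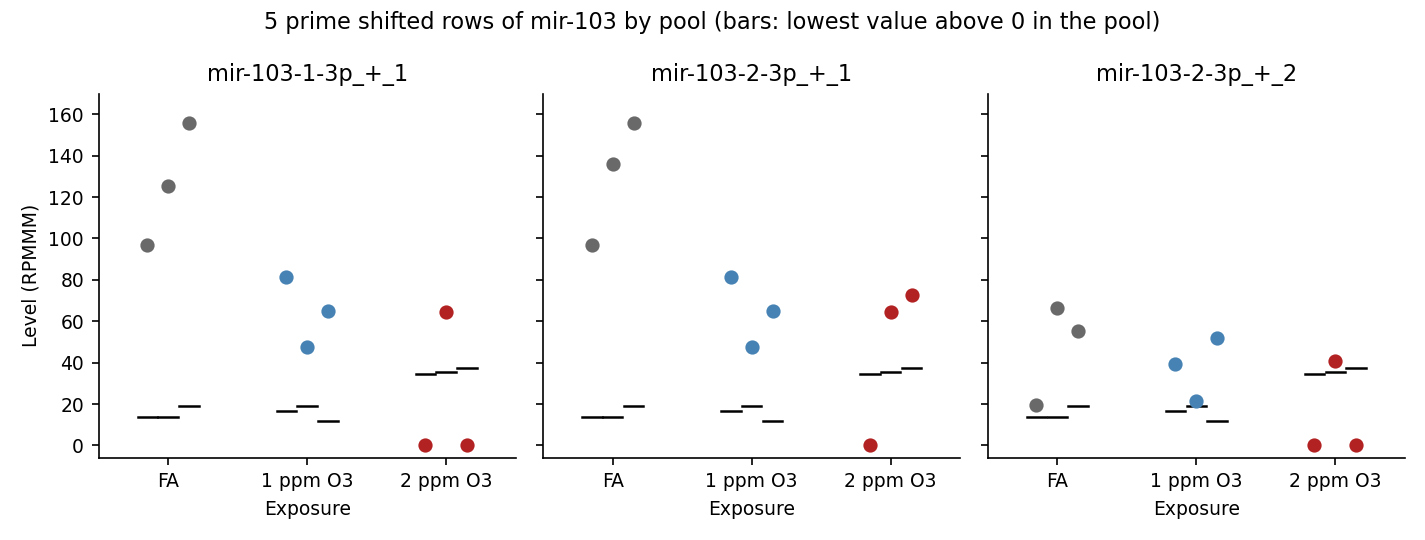
Level in RPMMM (vertical axis, shared) of mir-103-1-3p_+_1, mir-103-2-3p_+_1 and mir-103-2-3p_+_2 by exposure. Points are pools and the short black bars mark the lowest value above 0 in each pool, which lies between 34.3 and 37.3 RPMMM in the 2 ppm pools; the rows listed at 0 are all in those pools.

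Shifted rows made up 4.98%, 8.72% and 7.22% of the family total in the FA pools and 5.77%, 4.58% and 7.60% after 1 ppm O3. In the 2 ppm pools they made up 0%, 5.50% and 2.53%. The exposures overlapped, and the difference between 2 ppm O3 and FA of -4.30 percentage points could not be told from the spread of the pools (means 2.68% and 6.97%; two-sided exact permutation test, p = 0.2).

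The mature miRNAs of other hairpins whose levels most resembled those of mir-103-2-3p over the 9 pools, by Pearson's r of log2(RPMMM + 1) among 211 candidates, were miR-27b-3p (0.98), miR-532-5p (0.98), miR-200c-3p (0.97), miR-203-3p (0.96) and miR-30e-5p (0.96). The median r of all candidates was 0.60, and all share the scaling of the pools. miR-200c-3p, an epithelial miRNA, stood at 13702 ± 462 RPMMM (SD, n = 3) in FA, 11598 ± 1083 after 1 ppm O3 and 6064 ± 675 after 2 ppm O3. For mir-107-3p the highest were miR-375-3p (0.84), miR-29b-1-3p (0.80), miR-24-1-3p (0.80), miR-330-5p (0.80) and miR-92b-3p (0.76), with a median of -0.49 over all candidates. The value between mir-103-2-3p and mir-107-3p was -0.72. Since the pools fall into groups by exposure, these values mostly describe differences between the exposures.

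Markers of other cells were summed in the same pools. Summed over all 41 entries, the epithelial hairpins mir-200a, mir-200b, mir-200c, mir-141 and mir-429 stood between 64849 and 69404 RPMMM in FA, between 51325 and 56129 after 1 ppm O3 and between 26265 and 30243 after 2 ppm O3. The leukocyte hairpins mir-142, mir-223, mir-150 and mir-342 (28 entries) stood between 2319 and 3516 RPMMM in FA, between 2688 and 3356 after 1 ppm O3 and between 1654 and 2000 after 2 ppm O3, with mir-150 listed at 0 in FA and after 2 ppm O3. The erythroid hairpins mir-451, mir-486 and mir-144 (8 entries) stood between 884 and 1822 RPMMM in FA, between 150 and 343 after 1 ppm O3 and between 158 and 948 after 2 ppm O3, with mir-144 listed at 0 after both O3 concentrations. In both the epithelial and the leukocyte sum, every pool of 2 ppm O3 lay below all other pools, as for mir-103. The leukocyte hairpins were not alike. The means of mir-223 were 858 RPMMM in FA, 1267 after 1 ppm O3 and 805 after 2 ppm O3. Those of mir-142 were 872, 894 and 544 RPMMM, and those of mir-342 were 1059, 910 and 444 RPMMM. The FA and 1 ppm pools overlapped in the leukocyte sum, as for mir-103, and did not overlap in the epithelial sum. The erythroid sum was lowest on average after 1 ppm O3. On the fixed total, no sum was higher on average after 2 ppm O3 than in FA, whereas mir-107-3p was. The 5 hairpins named above held 0.588% of that total in FA and 45.2% after 2 ppm O3. The sums were not taken under another scaling, so that their direction apart from the total was not tested. Beside a median log2 fold change of -0.83 over all entries after 2 ppm O3, that of the epithelial entries tested was -1.30. It was -0.40 for the leukocyte and -1.485 for the erythroid entries tested. After 2 ppm O3, where 29.3% of all entries were DE and lower and 14.3% higher, 10 of the 19 epithelial entries tested were DE and lower and 0 higher, 2 of the 7 leukocyte entries lower and 0 higher, and 0 of the 2 erythroid entries either way. After 1 ppm O3, where 2.82% of all entries were DE and lower and 10.4% higher, 2 of the 19 epithelial entries and 1 of the 2 erythroid entries were DE and lower, 0 of the 7 leukocyte entries were DE, and 0 of these lists had an entry that was higher. The part of these cells in the levels of mir-103 and mir-107 was not tested. In pools of EV RNA, fewer vesicles from a cell type and less of a miRNA in each vesicle cannot be told apart.

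The related mir-15 and mir-16 group, hairpins mir-15a, mir-15b, mir-16, mir-195, mir-322, mir-497 and mir-503, had 38 rows, of which 9 passed the filter. Of these 9, mir-15a-5p, mir-15b-5p, mir-16-1-5p, mir-16-2-5p and mir-322-5p belong to strands with the seed AGCAGCA. The others, mir-16-1-3p, mir-322-3p, mir-322-3p_-_1 and mir-322-3p_-_2, come from the opposite arm. None of the 5p rows was DE in any comparison, and the counts and the median below cover both arms. Compared with FA, 0 of the 9 were DE and higher after 2 ppm O3, where 14.3% of all entries were, and 1 was DE and lower, where 29.3% were. Their median log2 fold change was -0.66, beside -0.83 for all entries. The DE row was mir-322-3p_-_2, from the 3p arm of mir-322 with a shifted end, with mean levels of 402 RPMMM in FA and 74.1 RPMMM after 2 ppm O3. After 1 ppm O3, where 10.4% of all entries were DE and higher and 2.82% lower, 1 of the 9 was DE and higher, mir-322-3p (log2 fold change 1.10, limma, adjusted p = 0.0161), and 1 was DE and lower, mir-16-1-3p (-2.33, limma, adjusted p = 0.00548). Between 2 ppm and 1 ppm O3, where 11.3% of all entries were DE and higher and 22.3% lower, 0 of the 9 were DE and higher and 2 lower, mir-322-3p (-1.71, limma, adjusted p = 0.000565) and mir-322-3p_-_2 (-2.44, limma, adjusted p = 0.000956).

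miR-16-5p, the most abundant guide strand of that group, stood near mir-103 in level. mir-16-1-5p was at 1993, 1340 and 1466 RPMMM in FA, at 1835, 1970 and 1863 RPMMM after 1 ppm O3 and at 1381, 1095 and 1426 RPMMM after 2 ppm O3. The FA pools overlapped those of 2 ppm O3, and the log2 fold change between 2 ppm O3 and FA was -0.29 (SE 0.174, limma, adjusted p = 0.179). miR-15b-5p fell by 0.93 on the log2 scale (limma, adjusted p = 0.0244), from a mean of 539 to 281 RPMMM, short of the fold of 2. Within a pool, mir-103-2-3p was 1.08, 1.53 and 1.77 times mir-16-1-5p in FA, 1.19, 0.934 and 1.30 times after 1 ppm O3 and 0.805, 1.09 and 0.823 times after 2 ppm O3. The exposures overlapped, the difference between 2 ppm O3 and FA was -0.67 on the log2 scale (exact permutation test, two-sided, p = 0.2), and 4 of the 27 pairs rose with concentration (two-sided exact permutation test, p = 0.0417, adjusted over 11 trends 0.0573).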

How the data were processed

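The authors removed adapter sequence, mapped reads to mm9 and counted miRNA and isomiR reads with miRquant 2.0. The deposited RPM values (RPMMM) are scaled to the same total of miRNA reads, 1000000, in each of the 9 pools. Reads per pool were estimated from the steps between low values, on which between 68.9% and 83.7% of them lay, too few for a count model. Entries over a mean of 50 RPMMM (461) were fitted as log2(RPMMM + 1) with limma 3.58.1 (R 4.3.3) as 1 mean per exposure with a trend, p-values were adjusted after Benjamini-Hochberg, and the thresholds of the study were used, whose methods name no test for these data. On simulated data for 2 ppm O3 versus FA with 461 entries, 135 of 200 entries changed 4-fold (67.5%) were called, and 2 others. Exact permutation tests served for single values. Both mir-103 copies were averaged for the family total, since their values were not equal in every pool. The p-values measure the spread between pools. Named miRNAs were all family rows, miR-23a-3p, the mir-15 and mir-16 group, marker hairpins and the 5 most correlated mature miRNAs; the correlates of mir-107-3p were added later. The members and lists were chosen with earlier results of these data known. Sequences are from RefSeq (GRCm38.p6) and positions from the mm9 annotation. Other steps used Python 3.11.15 with pandas 2.3.3, scipy 1.17.1, numpy 2.4.6 and, for plots, matplotlib 3.10.9.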

Additional observations from a re-analysis of the deposited data

How the results depend on the processing

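Of the family rows, 2 were DE between 2 ppm O3 and FA. The number was 1 with a mean above 100 RPMMM, with median-of-ratios scaling, with the total taken without the 5 hairpins, with mature entries only and with values divided by mir-103-2-3p, 0 with only the pools compared in the fit, 4 with values divided by miR-23a-3p, and 3 without a filter, which adds mir-103-1-3p_+_2. Leaving out 1 pool gave between 0 and 3 (0 without 2 ppm O3 replicate 1 or 3, 1 without FA replicate 3). Between 2 ppm and 1 ppm O3 the number was 0, and it was 1, mir-107-3p and higher, with a pseudocount of 10 RPMMM, with a mean above 100 RPMMM, under each other scaling, with mature entries only and with only the pools compared. Without a filter it was 1, mir-103-1-3p_+_2 and lower, and mir-107-3p had an adjusted p of 0.0863 from limma. Leaving out 1 pool gave between 0 and 1. Divisions by mir-103-2-3p and by miR-23a-3p were chosen after seeing the data.

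With the total taken without the 5 hairpins, the log2 difference of the family total turned to 0.0155 for 1 ppm O3 and 0.0805 for 2 ppm O3 against FA and to 0.065 between both concentrations, and 15 of the 27 pairs then rose with the concentration, against 4. The cause was not tested. Between 1 ppm O3 and FA, leaving out 1 pool moved the log2 difference of the family total between -0.1923 and 0.018, and the log2 ratio of mir-107-3p to mir-103-2-3p between -0.60 and 0.74. The shifted share of mir-107 alone was 0 in every pool.

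mir-107-3p was higher after 2 ppm O3 than in FA under 20 of 20 alternatives, with log2 fold changes from 1.31 to 3.15 and adjusted p from limma between 0.0118 and 0.0815, below 0.05 in 15. mir-103-2-3p was lower under 19 of 19, from -1.05 to -0.10, with an adjusted p below 0.05 in 17. No paired analysis was possible because the labels give no replicate numbers that pair pools. Depth limits what can be said of rows listed at 0 after 2 ppm O3, since the lowest value listed, an estimated 10 reads or so, was 34.3 RPMMM or more there.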
